A study of Mus musculus with 6 samples.

Results

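Transcripts of 10 genes that respond to the tumour suppressor p53 or encode death receptors were followed in mouse ileal organoids given retinoic acid. The 10 members, Gdf15, Tnfrsf10b, Bbc3, Mdm2, Ccng1, Phlda3, Eda2r, Trp53inp1, Bax and Fas, were taken by symbol from a table of 21534 gene rows, and each symbol stood on 1 row. Wild-type C57Bl/6 mice were the source of the ileal tissue. All of them, controls included, had been kept for 96 hours with 10 µM CHIR99021, a GSK3 inhibitor used to keep Wnt signalling on and the stem cell share high. For the next 24 hours 3 samples received 10 µM all-trans retinoic acid and 3 received vehicle (DMSO). Retinoic acid is the form of vitamin A that binds nuclear receptors. Whether the 3 libraries of a group are separate mice, separate cultures or repeats of 1 culture is not labelled, and the p-values therefore rest on a spread that may be technical.

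The protein p53, encoded by Trp53, accumulates after DNA damage and other stress and switches on genes that halt the cell cycle, repair DNA or kill the cell. In the intestinal crypt it is known for the death of stem and progenitor cells after irradiation, in which the BH3-only protein PUMA (Bbc3) takes part. Death receptors are surface proteins of the TNF receptor family that start caspase cascades when bound by ligands such as TRAIL or FAS ligand. Several of these genes also answer to other inputs: Gdf15 and Tnfrsf10b are known targets of the integrated stress response, which acts through the transcription factors ATF4 and CHOP.

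Gdf15 and Tnfrsf10b rose with retinoic acid, and the other 8 members did not pass the test. Values are CPM, counts per 1000000 of the library size after TMM scaling, and the test is edgeR's quasi-likelihood test with Benjamini-Hochberg adjustment over 13700 genes and a threshold of 0.05. All 10 members passed the filter on low counts. The count of 2 of 10 higher is 20% of the members, where 9.46% of all tested genes were called in either direction, 5.37% higher and 4.09% lower. With all 6 libraries and treatment as the only term, no member was called lower by edgeR, DESeq2 or limma-voom. Over all genes DESeq2 called 786 higher and 588 lower, and limma-voom 729 higher and 556 lower. A fit in edgeR with a block by library number called 3 members higher and 2 lower, and 1224 genes higher and 1052 lower in all. At an unadjusted p under 0.05, 3 members were higher and 2 lower in edgeR without the block. Of all 13700 tested genes, at least 2900 and fewer than 2998 had such a p, in either direction. The median log2 fold change of the 10 members was 0.014 and that of all tested genes −0.0080, and 5 of the 10 lay above 0. The groups' libraries did not overlap for 4 members (3 higher, 1 lower), where this held for 25.5% of all tested genes (12.9% higher, 12.6% lower). Totals ranged from 14919144 to 21833846 counts per library, and retinoic acid library 3 differed more from the other 2 of its group (chi-square of 10.4 and 11.1 per gene row, near 1 for sampling noise) than those 2 did from each other (4.09).

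**Figure D1:**
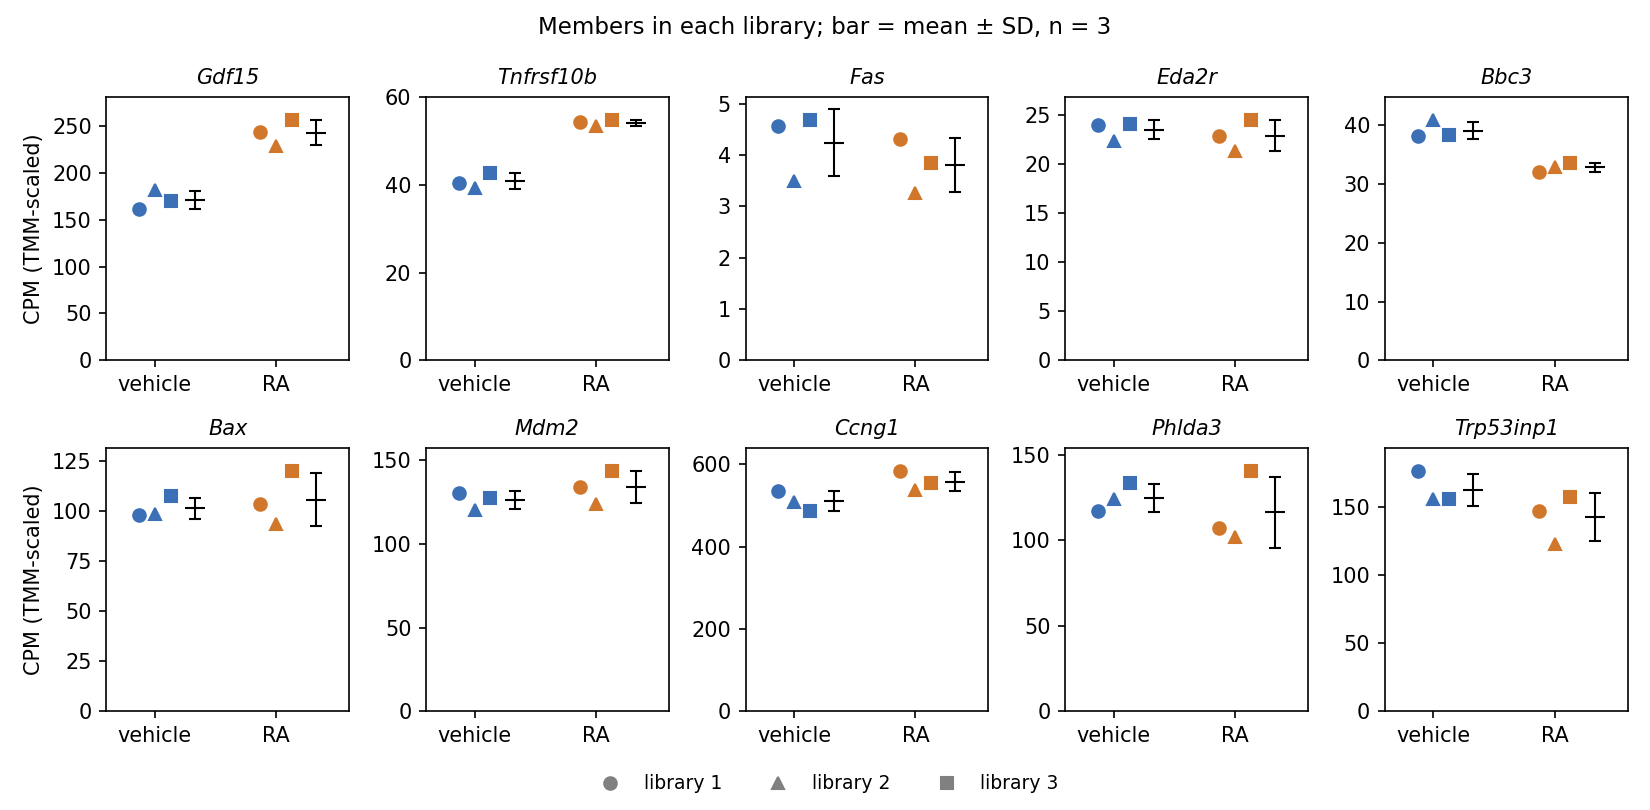
CPM of each member in the 3 vehicle (blue) and 3 retinoic acid (RA, orange) libraries, with mean and SD; each axis starts at 0, and marker shape gives the library number. Gdf15, Tnfrsf10b and Ccng1 have every retinoic acid library above every vehicle library, and Bbc3 has every one below.

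Gdf15 encodes a secreted cytokine of the TGF-beta superfamily that is released by stressed epithelium and acts on appetite through a receptor in the hindbrain (ENSMUSG00000038508, mm10 chromosome 8, 70629393 to 70632456, minus strand, a protein-coding gene). The vehicle libraries 1, 2 and 3 held 161.7, 181.2 and 169.4 CPM, and the retinoic acid libraries 243, 228.7 and 255.5 CPM. The lowest retinoic acid library thus lay well above the highest vehicle library. The means were 171 ± 9.86 and 242 ± 13.4 CPM (SD, n = 3 in each group). The log2 fold change was 0.51 (standard error, SE, 0.064; edgeR adjusted p = 0.00016), a 1.42-fold difference with a 95% interval of 1.29 to 1.56. It stayed called whichever library was left out (log2 fold change 0.47 to 0.55, highest adjusted p = 0.0021).

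Tnfrsf10b encodes DR5, the death receptor for TRAIL in the mouse (ENSMUSG00000022074, chromosome 14, 69767472 to 69784403, plus strand). It had 40.4, 39.2 and 42.7 CPM with vehicle and 54.1, 53.3 and 54.6 CPM with retinoic acid. The 3 retinoic acid values lay closer together than the vehicle values, and the groups were well apart. The means were 40.8 ± 1.78 and 54 ± 0.657 CPM (SD, n = 3), with a log2 fold change of 0.41 (SE 0.073, edgeR adjusted p = 0.0026), or 1.32-fold (95% interval 1.19 to 1.48). Leaving out each library in turn gave log2 fold changes of 0.38 to 0.44 and adjusted p-values up to 0.019, all called.

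The death receptor Fas and Eda2r, another receptor of the TNF receptor family, were not called. Fas, the receptor of FAS ligand (ENSMUSG00000024778, chromosome 19, 34290659 to 34327770), had 4.57, 3.49 and 4.67 CPM with vehicle and 4.31, 3.25 and 3.84 CPM with retinoic acid, from 48 to 92 counts a library. The groups overlapped, and the 95% interval of the fold ran from 0.662 to 1.23, the widest of the 10 members. Eda2r, a receptor for a form of ectodysplasin that is also known as XEDAR (ENSMUSG00000034457, chromosome X, 97333840 to 97377216), had 23.9, 22.3 and 24.1 CPM with vehicle and 22.9, 21.3 and 24.4 CPM with retinoic acid. Its fold had an interval of 0.849 to 1.12, and its log2 fold change of −0.034 turned to 0.013 without retinoic acid library 2. The ratio of Tnfrsf10b to Fas counts was 8.85, 11.2 and 9.14 in the vehicle libraries and 12.6, 16.4 and 14.2 in the retinoic acid libraries. These ratios did not overlap, and the two-sided exact permutation test gave p = 0.1, the smallest that 3 against 3 allow (0.125 adjusted over 5 ratios, chosen after the values were seen).

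Bbc3 and Bax belong to the BCL2 family, which governs the opening of the mitochondrial outer membrane. Bbc3 encodes PUMA, a BH3-only protein that sets off BAX and BAK (ENSMUSG00000002083, chromosome 7, 16309616 to 16318205, plus strand). It had 38.1, 40.8 and 38.3 CPM with vehicle and 32.1, 32.8 and 33.5 CPM with retinoic acid. Every retinoic acid library lay below every vehicle library, the reverse of Gdf15. The log2 fold change was −0.25 (SE 0.078), the interval of the fold 0.747 to 0.943, and the edgeR adjusted p of 0.059 missed the threshold. Leaving out 1 library at a time left it uncalled (adjusted p from 0.058 to 0.22), with log2 fold changes of −0.27 to −0.22. Bax, a pore-forming effector (ENSMUSG00000003873, chromosome 7, 45461695 to 45466898, minus strand), had 97.8, 98.6 and 107 CPM with vehicle and 104, 93.5 and 120 CPM with retinoic acid. The groups overlapped, with retinoic acid libraries both lowest and highest, and the fold had an interval of 0.922 to 1.18. Without retinoic acid library 3 the log2 fold change of Bax went from 0.062 to −0.036. The ratio of Bbc3 to Bax counts was 0.39, 0.414 and 0.357 with vehicle and 0.31, 0.351 and 0.281 with retinoic acid, again without overlap. The exact permutation test gave p = 0.1, the smallest possible (0.125 adjusted). This ratio too was chosen after the values were seen and reuses the counts above. The ratio of Bax to the survival gene Bcl2l1 was 0.624 to 0.703 with vehicle and 0.644 to 0.7 with retinoic acid (exact permutation p = 0.9).

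Mdm2, Ccng1, Phlda3 and Trp53inp1 act on p53 itself or on growth signalling, and none of them was called. Mdm2 encodes the ubiquitin ligase that marks p53 for destruction and is switched on by it (ENSMUSG00000020184, chromosome 10, 117688888 to 117710758, minus strand). It had 130, 120 and 127 CPM with vehicle and 134, 124 and 143 CPM with retinoic acid, so the groups overlapped. Its fold had an interval of 0.96 to 1.17 (adjusted p = 0.53), which lies below the whole interval of Gdf15.

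Ccng1 encodes cyclin G1, an atypical cyclin that works with MDM2 and a phosphatase (ENSMUSG00000020326, chromosome 11, 40748552 to 40755311, minus strand). It had 536, 510 and 487 CPM with vehicle and 583, 538 and 554 CPM with retinoic acid. The lowest retinoic acid library (538) and the highest vehicle library (536) nearly touched. The log2 fold change was 0.13 (SE 0.058, edgeR adjusted p = 0.21), with a 95% interval of 0.0044 to 0.25 on the log2 scale.

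Phlda3 encodes a lipid-binding protein that restrains the kinase AKT (ENSMUSG00000041801, chromosome 1, 135766119 to 135769136, plus strand). It had 117, 124 and 133 CPM with vehicle, and 107, 102 and 140 CPM with retinoic acid. Retinoic acid library 3 was the highest of all 6, and the other 2 retinoic acid libraries were the lowest. The coefficient of variation was 17.8% with retinoic acid and 6.47% with vehicle. The log2 fold change was −0.098 (adjusted p = 0.65), and without retinoic acid library 3 it was −0.25 and called lower (edgeR adjusted p = 0.026).

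Trp53inp1 encodes a stress protein of the nucleus and of autophagosomes (ENSMUSG00000028211, chromosome 4, 11156431 to 11174379, plus strand). It had 176, 155 and 155 CPM with vehicle and 147, 123 and 157 CPM with retinoic acid. Retinoic acid library 3 alone reached into the vehicle range. The log2 fold change was −0.19 (SE 0.085, edgeR adjusted p = 0.21), and without retinoic acid library 3 it was −0.26 and called (adjusted p = 0.03). Without that library 2 members were lower, Phlda3 and Trp53inp1, in place of none. Calls over all genes grew too, to 978 higher and 787 lower, from 736 and 560 with all 6 libraries. In these bulk samples fewer cells of a type and less RNA per cell cannot be told apart.

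**Figure D2:**
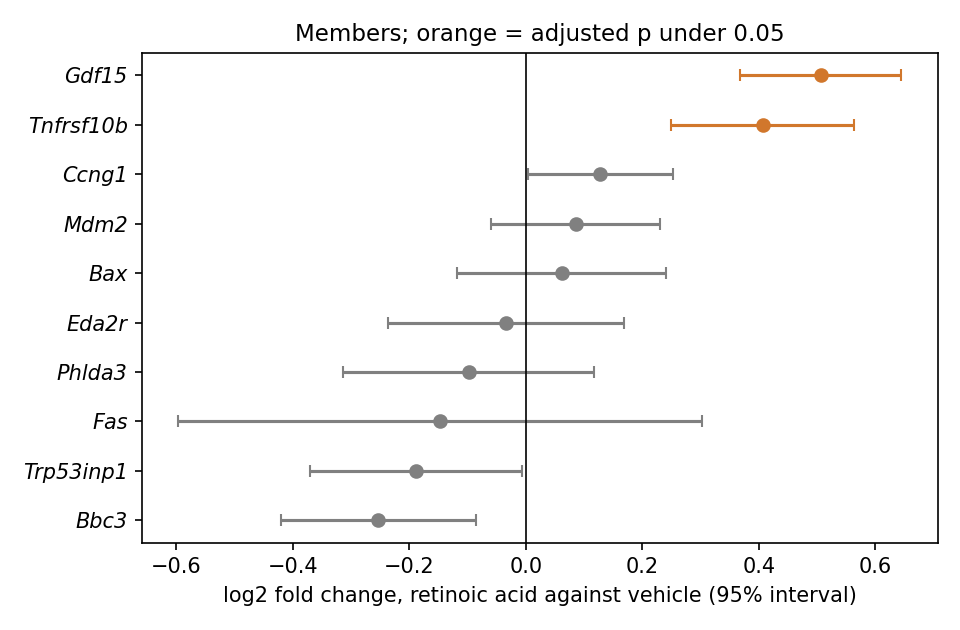
Log2 fold change of each member with its 95% interval from edgeR; orange marks an adjusted p under 0.05. The intervals of Gdf15 (0.37 to 0.64) and Tnfrsf10b (0.25 to 0.56) lie above 0, while Bbc3 (−0.42 to −0.085), Trp53inp1 (−0.37 to −0.0061) and Ccng1 (0.0044 to 0.25) have intervals that leave out 0 but adjusted p-values above the threshold.

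**Figure D3:**
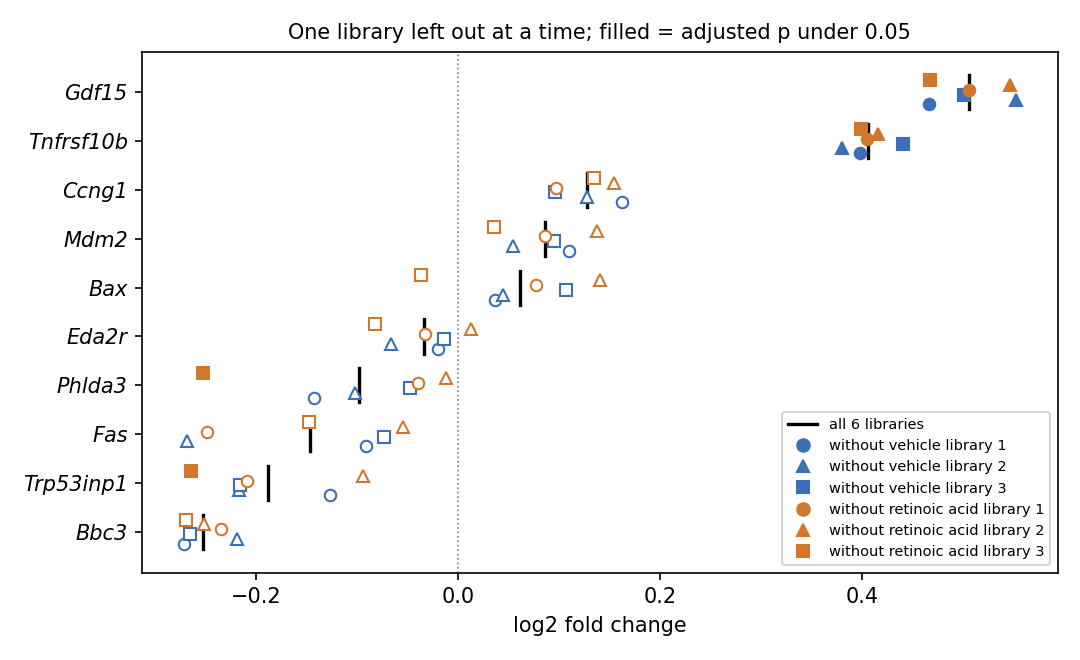
Log2 fold change of each member with 1 library left out, by library (colour and shape); a filled marker has an adjusted p under 0.05 and the black line is the value with all 6 libraries. Gdf15 and Tnfrsf10b are filled throughout, while Phlda3 and Trp53inp1 are filled only without retinoic acid library 3.

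Gdf15 and Tnfrsf10b were also compared with Mdm2 within each library. The ratio of Gdf15 to Mdm2 counts was 1.24, 1.51 and 1.33 with vehicle and 1.82, 1.85 and 1.79 with retinoic acid, a 1.34-fold difference. The ratio of Tnfrsf10b to Mdm2 was 0.31, 0.326 and 0.335 with vehicle and 0.404, 0.43 and 0.382 with retinoic acid, a 1.25-fold difference. Neither overlapped between the groups, and each had an exact permutation p of 0.1 (0.125 adjusted over 5 ratios), which this design cannot go below. These ratios were chosen after the values were seen. They reuse the counts of the member tests above and add no separate evidence. In the authors' deposited table Gdf15 and Tnfrsf10b had an FDR of 4.78e-11 and 0.000284, and the FDR of the other members lay between 0.171 and 0.978.

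Levels of different genes were compared per length, as CPM per kilobase of merged exons in GENCODE M21. With vehicle the order was Ccng1 (145 ± 7.01, SD, n = 3), Gdf15 (92.2 ± 5.3), Phlda3 (80 ± 5.19), Bax (64.3 ± 3.37), Trp53inp1 (25.1 ± 1.82), Mdm2 (24.8 ± 1.02), Bbc3 (18.4 ± 0.701), Tnfrsf10b (7.48 ± 0.326), Eda2r (3.98 ± 0.165) and Fas (2.06 ± 0.316). Only Trp53inp1 and Mdm2 had overlapping libraries among neighbours in that order. With retinoic acid Gdf15 stood at 131 ± 7.24 and Tnfrsf10b at 9.91 ± 0.121, and each kept its place in the order. Phlda3 (65.4 to 89.9) and Bax (59.3 to 75.9) then overlapped, and Mdm2 (24.4 to 28.1) lay above Trp53inp1 (19 to 24.3). Merged exon lengths include isoforms that may not be used here, so these levels are approximate.

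The 250 bases before the transcription start are shown for the member that rose most and for the 3 members in which the p53 half-site consensus was found. They come from RefSeq (GRCm38.p6), read 5′ to 3′ on the gene's strand, where 8 of the 10 members had an entry (11 windows); Tnfrsf10b and Trp53inp1 had none. In Gdf15 capitals mark the nuclear receptor half-site AGGTCA and its variant that starts with G in place of A (GGGTCA), in either orientation, and in the others the p53 half-site consensus decamer.
Gdf15, chr8:70632457-70632706, minus strand: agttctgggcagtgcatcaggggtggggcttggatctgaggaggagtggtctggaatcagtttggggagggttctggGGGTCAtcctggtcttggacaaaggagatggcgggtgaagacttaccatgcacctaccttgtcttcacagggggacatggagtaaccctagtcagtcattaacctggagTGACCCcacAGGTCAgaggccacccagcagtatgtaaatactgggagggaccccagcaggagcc
Ccng1, chr11:40755287-40755536, minus strand: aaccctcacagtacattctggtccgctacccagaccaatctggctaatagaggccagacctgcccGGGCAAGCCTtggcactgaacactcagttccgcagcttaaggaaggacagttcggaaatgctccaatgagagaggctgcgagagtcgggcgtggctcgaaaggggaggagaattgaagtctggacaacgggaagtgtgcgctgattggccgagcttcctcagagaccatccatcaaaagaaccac
Mdm2, chr10:117710759-117711008, minus strand: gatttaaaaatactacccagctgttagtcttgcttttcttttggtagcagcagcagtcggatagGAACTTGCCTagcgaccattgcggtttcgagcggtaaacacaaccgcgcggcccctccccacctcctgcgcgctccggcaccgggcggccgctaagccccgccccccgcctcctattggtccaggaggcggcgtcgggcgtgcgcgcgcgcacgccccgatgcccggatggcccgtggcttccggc
Bax, chr7:45466899-45467148, minus strand: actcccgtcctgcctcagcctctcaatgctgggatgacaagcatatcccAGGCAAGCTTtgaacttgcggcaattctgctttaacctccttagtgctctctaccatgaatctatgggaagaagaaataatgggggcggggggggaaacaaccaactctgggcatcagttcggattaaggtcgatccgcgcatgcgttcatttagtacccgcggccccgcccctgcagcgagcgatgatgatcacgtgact

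The p53 half-site decamer was found in 3 of the 11 member windows, at 185 bases before the start in Ccng1 (GGGCAAGCCT), 186 in Mdm2 (GAACTTGCCT) and 201 in Bax (AGGCAAGCTT), and in 7.13% of all 32851 windows of the same length. None of these 3 genes was called. The Gdf15 window printed here held no such decamer. It held the G variant 173 bases before the start, the same variant on the other strand at 64, and AGGTCA at 55. No other member window held either motif. Over all windows AGGTCA was found in 14% and its G variant in 11.6%, both strands searched. The 8 bases TGATGNAA, the core of the element that ATF4 and its partners bind, were in none of the 11 member windows and in 3.45% of all windows. The GC-rich motif GGGCGG was in 8 of 11 member windows and in 32.7% of all. All 3 windows of Bbc3 were among the 8, and its windows 2 and 3 overlap, so the 8 windows are not 8 separate genes. Phlda3, Bax, Mdm2, Fas and Eda2r also held it, and Gdf15 and Ccng1 lacked it. A match is a description of these letters only, and p53 sites that lie outside these windows, as in introns, were not searched.

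Of 17 tested members of the list of p53 regulators (19 listed) 1 was lower and none higher in edgeR (5.88% called against 9.46% of all genes). At an unadjusted p under 0.05, 1 was higher and 4 lower, where at least 2900 of the 13700 tested genes had such a p. None was higher in DESeq2 or limma-voom, and the median log2 fold change was −0.054. Trp53 itself had 79.5, 82.7 and 85.2 CPM with vehicle and 82.5, 89.4 and 85.2 CPM with retinoic acid, with an interval of the fold from 0.945 to 1.14. Mdm4, the partner of MDM2 in restraining p53, had 73.8 ± 7 and 77.8 ± 1.27 CPM (SD, n = 3), not called. The 1 that fell was Chek1, the checkpoint kinase of S phase, from 11.7, 9.77 and 10.5 CPM to 5.81, 7.39 and 4.75 CPM (log2 fold change −0.85, SE 0.17, edgeR adjusted p = 0.0054), and it held with any single library removed. The number lower was 2 without retinoic acid library 3, where 787 genes in all were lower, against 560 with all 6 libraries. Trp63 had 12 counts over the vehicle and 9 over the retinoic acid libraries and Trp73 had 6 and 0, too few to be tested.

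Of 39 tested other targets of p53, 6 rose and none fell in edgeR (15.4% called, against 9.46% of all tested genes). At an unadjusted p under 0.05, 10 were higher and 3 lower, where at least 2900 of the 13700 tested genes had such a p. DESeq2 and limma-voom each called 6 higher and none lower (over all genes, 786 and 729 higher, 588 and 556 lower). The median log2 fold change was 0.022. Cdkn1a, the cell cycle inhibitor p21 and a main target of p53, had 677, 698 and 727 CPM with vehicle and 942, 872 and 980 CPM with retinoic acid. The groups were far apart, and the log2 fold change was 0.41 (SE 0.058, edgeR adjusted p = 0.00042). Epha2, a receptor of ephrins, rose by 0.39, and Ddit4, which restrains mTOR signalling, by 0.33. Apaf1, the scaffold of the apoptosome, rose by 0.35. All 4 held with any single library removed (highest adjusted p = 0.049). The other 2, Sfn (0.31) and Perp (0.20), (both chosen for naming with their values known) were not called in 4 and 5 of the 6 fits that omit a library (highest adjusted p 0.13 and 0.16), so that 4 members were higher without vehicle library 1 or 3 or retinoic acid library 1 or 2. The number lower was 1 without vehicle library 2. Over all genes 443 to 550 were higher in those 4 fits, against 736 with all 6 libraries. Without vehicle library 2, 346 genes in all were lower, against 560. The targets Zmat3 (268 and 295 CPM), Sesn1 (25.8 and 23.9), Sesn2 (123 and 137), Aen (128 and 128) and Pmaip1 (128 and 128), which span RNA binding, nutrient sensing, nuclease activity and BH3-only killing, were not called. The fitted direction of Aen and Pmaip1 turned with single libraries.

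In the list of death receptors, ligands and their signalling, 3 of 23 tested members rose and 2 fell in edgeR. This is 21.7% called, against 9.46% of all tested genes. At an unadjusted p under 0.05, 6 were higher and 3 lower, where at least 2900 of the 13700 tested genes had such a p. DESeq2 called 3 higher and 2 lower, and limma-voom 3 higher and 1 lower (over all genes, 786 and 729 higher, 588 and 556 lower). The median log2 fold change was −0.0027. Mlkl, the pore-forming executor of necroptosis, had 11.8, 12.5 and 15.7 CPM with vehicle and 22.5, 23 and 20.6 CPM with retinoic acid (log2 fold change 0.73, SE 0.12, edgeR adjusted p = 0.0014). Tnfrsf11b, the decoy receptor osteoprotegerin, which also binds TRAIL, fell from 129, 112 and 99.1 CPM to 90.3, 79.4 and 79.9 CPM (−0.45, SE 0.09, adjusted p = 0.0052). Both calls held with any single library removed. Birc3, an inhibitor of apoptosis, rose by 0.34, and Tradd, an adaptor of TNF receptor 1, by 0.24. Tnfrsf22, another mouse decoy receptor for TRAIL, fell by 0.56. These last 3 were each uncalled in 4 of the 6 fits that omit a library (highest adjusted p 0.15, 0.2 and 0.15), and 1 member was higher with vehicle library 2 or retinoic acid library 1 or 2 removed. With vehicle library 1 or 3 or retinoic acid library 1 or 2 removed 1 was lower. In the same fits the numbers over all genes were 443 to 528 higher and 289 to 458 lower, against 736 and 560 with all 6 libraries.

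The ligand Tnfsf10 (TRAIL) had 14.9, 13.4 and 9.87 CPM with vehicle and 10.9, 12 and 7.08 CPM with retinoic acid, uncalled, with an interval of the fold from 0.584 to 1.03. Tnfrsf1a, the TNF receptor 1, had 109 ± 0.888 and 122 ± 10.5 CPM (SD, n = 3; edgeR adjusted p = 0.21). The adaptor Fadd (76.9 and 75.2 CPM) and the initiator caspase Casp8 (135 and 152) were not called. Fasl was not analysed here.

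Of 19 tested genes of the BCL2 family and the mitochondrial route, 2 rose and none fell in edgeR. This is 10.5% called, close to the 9.46% of all tested genes. At an unadjusted p under 0.05, 6 were higher and none lower, where at least 2900 of the 13700 tested genes had such a p. DESeq2 and limma-voom each called 2 higher and none lower (over all genes, 786 and 729 higher, 588 and 556 lower). The median log2 fold change was 0.015. The 2 that rose were Apaf1, which the list shares with the p53 targets, and Bak1, the other pore-forming effector beside BAX. Bak1 had 202, 205 and 204 CPM with vehicle and 248, 245 and 256 CPM with retinoic acid (log2 fold change 0.29, SE 0.054, edgeR adjusted p = 0.0029), called with any single library removed. There were 3 higher with vehicle library 3 or retinoic acid library 2 or 3 removed. Over all genes these fits called 550, 501 and 978 higher, against 736 with all 6 libraries. The survival genes Bcl2 (30.5 and 27.6 CPM), Bcl2l1 (150 and 155) and Mcl1 (404 and 393) were not called.

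Of 21 tested targets of the integrated stress response, 3 rose and 1 fell in edgeR (19% called, against 9.46% of all tested genes). At an unadjusted p under 0.05, 6 were higher and 1 lower, where at least 2900 of the 13700 tested genes had such a p. DESeq2 and limma-voom each called 4 higher and 1 lower (over all genes, 786 and 729 higher, 588 and 556 lower). The median log2 fold change was 0.083, with 15 of 21 above 0. Slc7a11, the cystine importer, rose by 0.34 (SE 0.069, edgeR adjusted p = 0.0056) and Ddit4, also on the p53 list, by 0.33, and both held with any single library removed. Ddit3, which encodes CHOP, had 100, 94.7 and 98.9 CPM with vehicle and 114, 126 and 110 CPM with retinoic acid (0.26, SE 0.067, adjusted p = 0.027). Its call was lost in each fit that omits a library except the one without retinoic acid library 3 (adjusted p up to 0.13). Nupr1, a stress-induced chromatin protein, fell by 0.24 and lost its call without 4 of the 6 libraries (adjusted p up to 0.16). The number higher was 2 without each library but retinoic acid library 3, without which it was 5. Over all genes it was 443 to 550 and 978 in the same fits, against 736 with all 6 libraries. In this list 0 were lower with vehicle library 1 or 3 or retinoic acid library 1 or 2 removed. Over all genes 289 to 458 were then lower, against 560. Atf4 (935 and 990 CPM), Trib3 (266 and 289), Chac1 (219 and 227) and Atf3 (59.2 and 53.1) were not called.

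**Figure D4:**
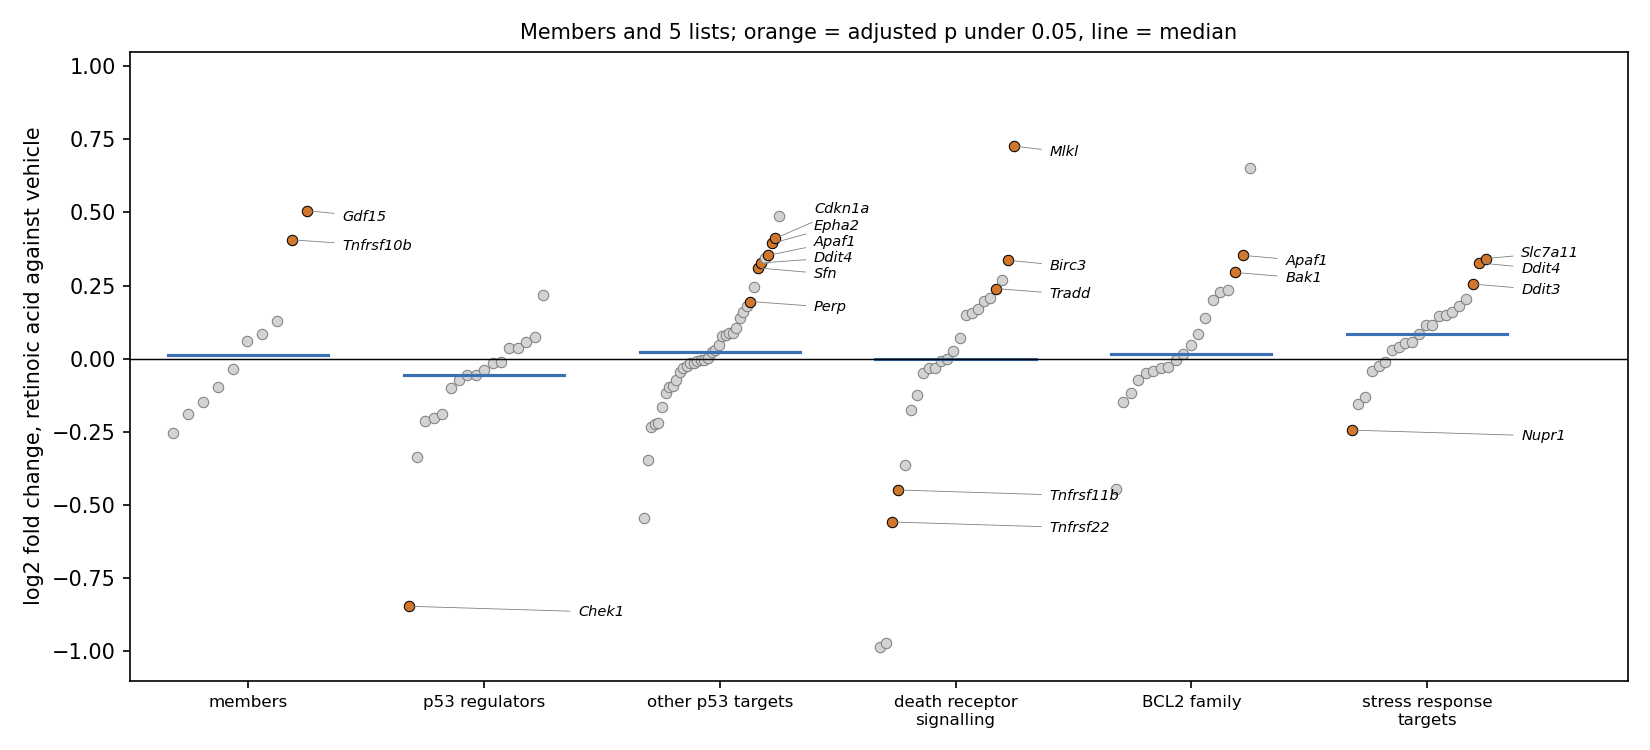
Log2 fold change of the 10 members and of the tested genes of 5 lists, sorted within each list; orange points have an adjusted p under 0.05 and blue lines are medians. Chek1 is the lowest called gene (−0.85) and Mlkl the highest (0.73), and the medians lie between −0.054 and 0.083.

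The label of an epithelial culture was checked with marker lists. The 8 epithelial markers summed to 11490 to 12160 CPM in the vehicle and 11460 to 12330 CPM in the retinoic acid libraries, and none was called (edgeR). Of them, 3 were higher and 1 lower at an unadjusted p under 0.05, which at least 2900 of the 13700 tested genes had. The 9 mesenchymal markers summed to 5.43 to 5.51 CPM with vehicle and 3.09 to 3.99 CPM with retinoic acid. The 10 endothelial and neural markers summed to 4.86 to 7.9 and 4.31 to 6.03 CPM. The 8 leukocyte markers in the table summed to 25 to 29.6 CPM with vehicle and 29 to 33.8 CPM with retinoic acid, most of it Csf1r, and Ptprc had 2 and 0 counts over the groups. Cd68, a lysosomal protein, was the 1 marker called, at 4.31 ± 0.371 and 7.28 ± 1.42 CPM (SD, n = 3; edgeR adjusted p = 0.022), and its call was lost without 4 of the 6 libraries (adjusted p up to 0.11). The part of these markers in the results above was not tested.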

How the data were processed

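Directional polyA RNA libraries were made from 3 vehicle and 3 retinoic acid samples, per the labels' protocols. The deposited table gives a raw read count per gene and library, and, headed as DESeq statistics, p-values, their FDR and 2 log2 fold changes (plain and shrunken) by the authors, per the file headers. The submitters' processing notes name mm10 as the build. Aligner, annotation and strand setting: not given in the sources used here. One protein-coding readthrough model (Gm45808) overlaps Bax on its strand and a small RNA gene (Gm27818) lies within Fas, so the split of reads there is uncertain.

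Of 21534 rows, 21102 had a gene ID in the table of gene names, which gave current symbols. Counts were fitted with edgeR 4.0.16 in R 4.3.3 (filterByExpr, 13700 genes; TMM factors 0.978 to 1.023; glmQLFit and glmQLFTest, two-sided, treatment as the only term). The biological coefficient of variation was 7.81%. SEs are the log2 fold change divided by the square root of F, and intervals are 95%. Intervals and SEs thus come from the fit and not from the printed SDs. Replicates of a group differed by more than sampling noise (chi-square per row 4.09 to 11.1). On simulated counts for this comparison (13576 genes after the filter), 74% of 100 genes changed 1.5-fold and 93% of 100 changed 2-fold were called, and 7.22% of 180 calls were unchanged genes.

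The members and gene lists (169 genes, 166 in the table, 139 tested) were chosen with earlier results of these data known. Named genes are all members, up to 4 called genes per direction of each list (all called where there are 4 or fewer) and a set of fixed genes. A few genes that were listed or fixed are not reported here, and list counts leave them out. Alternatives were DESeq2 size factors, no filter, a minimum of 10 counts in every library of a group, DESeq2 1.42.0, limma-voom (limma 3.58.1), a block by library number and leaving out each library.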

Additional observations from a re-analysis of the deposited data

How the results depend on the processing

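Of 540 comparisons of the log2 fold change of 45 genes with an alternative setting, 489 kept direction and side of the threshold, and of 168 comparisons of a number of called genes 136 stayed within 1.5 times. Directions turned for 6 uncalled genes: Pmaip1 (0.0040 with no filter; −0.078 to 0.09 with 1 library left out), Aen (−0.017 to 0.023), Bcl2l1 (−0.035 to 0.095), Bax (−0.036 to 0.14), Eda2r (−0.083 to 0.013) and Mcl1 (−0.086 to 0.0081), the last 5 also with 1 library left out. With 1 library left out at a time, the number of genes called ran from 443 to 978 higher and 289 to 787 lower over all genes, from 0 to 2 lower among the members (2 higher throughout), and from 1 to 2 lower among p53 regulators. It ran from 4 to 6 higher and 0 to 1 lower among other p53 targets, from 1 to 3 higher and 1 to 2 lower in the death receptor list, from 2 to 3 higher in the BCL2 list, and from 2 to 5 higher and 0 to 1 lower in the stress response list. Over all genes the highest numbers in both directions came without retinoic acid library 3. With no filter, 2 p53 regulators were called lower, and 7 other p53 targets were called higher and 1 lower. In that fit 968 genes in all were higher and 752 lower. With limma-voom 1 death receptor gene was lower, where 556 genes in all were lower. The cause of these changes was not tested. Fits with 1 library left out also have fewer samples, and the part of this was not tested either.

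The labels do not say that libraries of the same number are paired, so the main fit left library number out. The deviations from the group means of same-numbered libraries correlated at 0.128, 0.098 and 0.257, and each library correlated best with its own number. Pairing was thus neither established nor excluded. A fit with library number as a block called 1224 genes higher and 1052 lower, against 736 and 560. Under that block 2 members were also lower (Bbc3, −0.25, adjusted p = 0.024, and Trp53inp1, −0.19, 0.039) and Ccng1 was called higher (0.13, 0.043). The block gave 1 p53 regulator higher and 3 lower, and 8 other p53 targets higher and 1 lower. It gave 5 death receptor list genes higher and 2 lower, and 6 BCL2 list genes higher and none lower. In the stress response list it gave 5 higher and 1 lower. Among the 10 members Fas had the fewest counts, 48 to 92 a library.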
